A study of Mus musculus with 10 samples.

Results

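Serpins are a family of proteins most of which inhibit serine or cysteine proteases. The genes examined were those whose mouse symbol consists of Serpin, a clade letter from a to i and a number, and 62 of the 24062 genes in the count files were taken by this rule; 1 further symbol of this form was not analysed here. They were compared between the jejunum of WT and KSR23 mice at postnatal day 5, with 5 libraries in each group. All mice were C57BL/6. WT mice were control littermates, and whether they carried a cre or cassette allele is not given in the sources used here. KSR23 mice carried R23, an IL-23 cassette at ROSA26 that stays silent until cre removes a stop signal, together with hK14-cre, a cre recombinase under the human keratin 14 promoter, so the cytokine was switched on in keratinocytes and in any other cell in which this promoter was active. The comparison addresses how gene expression in the intestine differs in newborn mice that make IL-23 mainly in the skin. The paper reports that these pups were smaller than their littermates and had diarrhoea, with more triglycerides in stool and less in serum. It also reports that they died early. Whether differences in the jejunum follow the cytokine directly or this state of the pups was not tested.

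An inhibitory serpin offers an exposed stretch, the reactive centre loop, as bait. The protease cuts the loop, stays attached to it and is dragged across the inhibitor and disabled, so each serpin molecule is used up with its target. Clade A members are mostly secreted and include the antitrypsins and antichymotrypsins made chiefly by the liver, whereas clade B members lack a classical secretion signal and act largely inside cells. Several members inhibit no protease, among them the collagen chaperone Serpinh1 and the epithelial protein Serpinb5 (maspin). In the intestine, serpins are known as counterparts of proteases released by neutrophils, mast cells, lymphocytes and the pancreas.

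In mice the human antitrypsin gene has several counterparts, and their loops differ at the bait position. The 60 coding bases of the loop of Serpina1a to Serpina1e are shown because all of these genes fell, 2 of them from the highest WT levels per kb beside Serpinb1a, and because they are alike enough for reads to be lost or misassigned between them. The stretches were read from GENCODE M21 transcripts (build GRCm38, the assembly called mm10 in the deposited files), start at the conserved hinge of the loop, lie in the last exon of the gene and are written 5′ to 3′ on the coding strand. Capitals mark the codon of the residue after which the protease cuts.
Serpina1a, chr12:103853768-103853827, minus strand: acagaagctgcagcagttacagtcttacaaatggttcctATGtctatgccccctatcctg
Serpina1b, chr12:103728335-103728394, minus strand: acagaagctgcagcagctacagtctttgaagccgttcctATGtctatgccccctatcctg
Serpina1c, chr12:103895105-103895164, minus strand: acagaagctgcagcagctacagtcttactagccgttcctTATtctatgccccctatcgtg
Serpina1d, chr12:103763773-103763832, minus strand: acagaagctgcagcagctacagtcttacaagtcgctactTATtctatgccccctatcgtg
Serpina1e, chr12:103947111-103947170, minus strand: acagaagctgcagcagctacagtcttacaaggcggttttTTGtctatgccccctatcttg
Serpina1a and Serpina1b shared the marked codon, as did Serpina1c and Serpina1d, and Serpina1e had its own. Pairs of these stretches differed at 4 to 9 of 60 bases.

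The promoters of 4 of the 5 Serpina3 genes that rose and of Serpina1e are shown next, since these genes moved as neighbours on chromosome 12. Each runs from 250 bases before to 50 after the start site and was taken from RefSeq (build GRCm38.p6), in which 52 of the 62 members were found. Capitals mark matches on either strand to TTCNNNGAA, the core bound by STAT factors, or TTGCNNAA, a core bound by C/EBP factors.
Serpina3f promoter, chr12:104214294-104214593, plus strand: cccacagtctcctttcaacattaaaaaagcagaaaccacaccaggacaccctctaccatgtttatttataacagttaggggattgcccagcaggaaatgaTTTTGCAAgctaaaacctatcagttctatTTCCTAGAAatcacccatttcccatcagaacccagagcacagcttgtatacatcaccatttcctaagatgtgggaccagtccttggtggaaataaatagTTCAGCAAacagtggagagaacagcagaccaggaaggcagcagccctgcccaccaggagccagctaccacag
Serpina3g promoter, chr12:104235897-104236196, plus strand: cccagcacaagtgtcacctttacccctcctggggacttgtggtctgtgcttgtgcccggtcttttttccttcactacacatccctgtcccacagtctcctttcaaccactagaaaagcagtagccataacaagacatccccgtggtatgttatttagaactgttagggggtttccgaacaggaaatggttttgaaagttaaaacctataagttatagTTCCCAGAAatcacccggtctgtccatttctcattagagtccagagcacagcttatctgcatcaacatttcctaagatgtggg
Serpina3i promoter, chr12:104262872-104263171, plus strand: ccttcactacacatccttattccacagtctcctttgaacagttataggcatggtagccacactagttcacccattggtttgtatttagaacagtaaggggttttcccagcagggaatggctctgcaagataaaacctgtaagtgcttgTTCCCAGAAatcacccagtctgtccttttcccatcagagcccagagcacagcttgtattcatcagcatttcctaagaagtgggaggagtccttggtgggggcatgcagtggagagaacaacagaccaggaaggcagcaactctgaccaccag
Serpina3n promoter, chr12:104406458-104406757, plus strand: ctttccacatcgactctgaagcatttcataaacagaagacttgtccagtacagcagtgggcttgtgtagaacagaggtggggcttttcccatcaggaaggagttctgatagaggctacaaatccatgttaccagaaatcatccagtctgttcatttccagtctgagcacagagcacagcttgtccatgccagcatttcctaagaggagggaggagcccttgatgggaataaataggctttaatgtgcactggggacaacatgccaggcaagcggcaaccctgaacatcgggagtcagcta
Serpina1e promoter, chr12:103956848-103957147, minus strand: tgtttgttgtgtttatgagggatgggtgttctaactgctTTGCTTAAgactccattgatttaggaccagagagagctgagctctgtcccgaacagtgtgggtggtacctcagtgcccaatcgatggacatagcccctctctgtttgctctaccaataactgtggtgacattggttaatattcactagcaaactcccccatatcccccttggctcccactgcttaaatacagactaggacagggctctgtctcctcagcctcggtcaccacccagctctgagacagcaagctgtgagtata
The STAT letters began 121 bases before the start site in Serpina3f, 33 bases before it in Serpina3g and 102 bases before it in Serpina3i. The Serpina3n promoter held neither motif, nor did that of Serpina3c, the Serpina3 gene that rose from the fewest counts, which is not printed. Over all 32851 promoters of this length in the table, 8.3% held TTCNNNGAA and 10.8% held TTGCNNAA. Among the 61 promoters of members, 11 (18.0%) held the first and 17 (27.9%) the second, and alternative start sites of a gene are counted separately. The first motif was in promoters of 8 member genes, of which Serpina3f, Serpina3g and Serpina3i rose, Serpina11, Serpina1f, Serpinb2 and Serpinb6a were not called and Serpinb9c was not tested. The second motif was in promoters of 14 member genes. Of these, Serpina1a, Serpina1b, Serpina1d, Serpina1e and Serpina5 fell and Serpina3f rose. Serpina1f, Serpinb2 and Serpinc1 were not called, and Serpina12, Serpina3b, Serpina7, Serpinb12 and Serpinb3d were not tested. In the antitrypsins the matched letters were TTGCTTAA, and no match to TTGCNNAA was in the promoter of Serpina1c. The letters began before the start site in Serpina1b, Serpina1d and Serpina1e but after it in Serpina1a. These are letter matches only and were not compared with any binding data.

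Expression was measured by RNA sequencing as counts of reads per gene, given below as CPM (the count of a gene divided by the library total in M counts, with totals scaled by trimmed mean of M-values, TMM). Library totals were 25.5 to 32.0 M counts in WT and 31.2 to 60.9 M in KSR23, so a count of 3 stood for 0.0864 to 0.113 CPM in WT and 0.0427 to 0.119 CPM in KSR23. Genes were called with the likelihood ratio test of edgeR at a Benjamini-Hochberg adjusted p under 0.05 over the 17632 genes that reached 5 counts in some library, and fold changes are log2 of KSR23 over WT with the standard error (SE) of the model. Transcripts of the IL-23 subunit gene Il12b numbered 0 to 5 counts in WT and 9 to 40 in KSR23, and those of Il22 numbered 0 to 1 and 137 to 329. Replicates 4 and 5 of both groups were the highest or the lowest library of their group at 8.54% to 18.4% of genes. For replicates 1 to 3 the share was 45.7% to 75.6%. Independent libraries would each be an extreme about equally often. Replicates 4 and 5 instead lay between the others at most genes, and whether they are independent was not tested. If they are not, the SDs and p-values from all 5 libraries understate the spread. Results from replicates 1 to 3 alone are therefore given beside the calls of named serpins, proteases and inhibitors. Y-linked genes, which only males carry, summed to 196, 154, 18.1, 168 and 168 CPM in WT replicates 1 to 5. In KSR23 replicates 1 to 5 they summed to 129, 0.29, 0.0397, 76.7 and 0.0282 CPM. The sample titles give no sex, but by these sums the sexes were not balanced between the groups. Serpin calls with the Y-linked share as a covariate are given where they differ. The study calls the libraries of a group biological replicates, the labels name no animals, and the p-values measure only the spread between these libraries.

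Serpins moved in both directions, with the antitrypsins lower and most of the called Serpina3 genes, Serpinb1a and Serpinb5 higher in KSR23. Of the 62 members, 17 had no count in any library, 6 had counts but stayed under the filter, and 39 were tested. Among the 39, 16 were called (7 higher and 9 lower in KSR23) and 23 were not. That is 41.0% of the tested members, beside 18.5% of all tested genes (9.74% higher and 8.76% lower). The filter keeps a gene that is expressed in 1 group alone, so the members were also read at a mean of 1 or more CPM over all 10 libraries, where 11 of 20 were called beside 20.8% of all such genes. CPM did not overlap between the groups for 14 of the tested members, beside 14.4% of all tested genes. The quasi-likelihood F test of edgeR called 14 members (15.4% of all genes), replicates 1 to 3 alone gave 8 by the likelihood ratio test (3.36% of all genes) and 4 by the quasi-likelihood test (0.812%). With the Y-linked share as a covariate 12 members were called, 4 higher and 8 lower (10.2% of all genes), without Serpina3a, Serpina3c, Serpina3i and Serpinb1a. The median log2 fold change was -0.04 over the tested members and 0.03 over all genes.

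**Figure D1:**
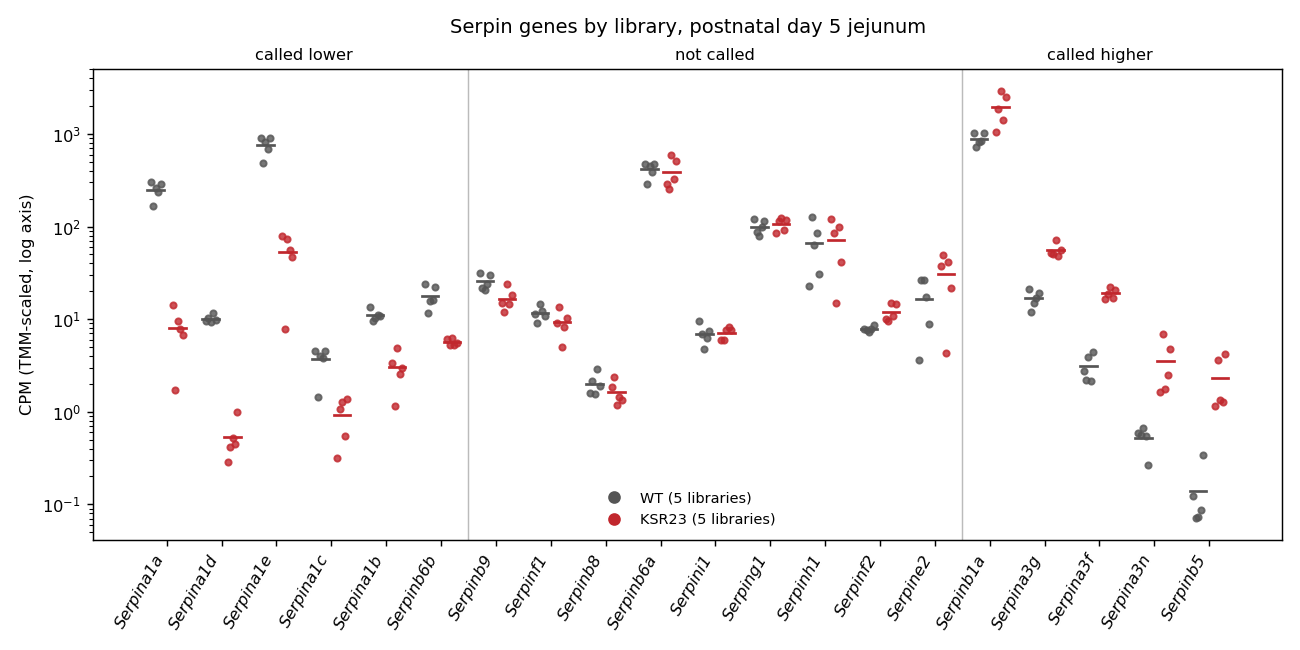
CPM (log axis, TMM-scaled) of the 20 serpin genes with a mean of 1 or more CPM in either group, with 1 point per library (grey WT, red KSR23, 5 each) and a bar at the group mean, ordered by fold change within the genes called lower, not called and called higher. Serpina1a and Serpina1e lay far lower in every KSR23 library, Serpinb1a was the most abundant serpin of every KSR23 library, and Serpine2 and Serpinh1 scattered widely within both groups.

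The antitrypsin genes fell together. Serpina1a to Serpina1e encode alpha-1-antitrypsins, secreted proteins named after the human inhibitor of neutrophil elastase, and all 5 were called lower, with no overlap of the groups. Their summed level was 1036 ± 231 CPM in WT and 65.0 ± 33.5 CPM in KSR23 (SD, n = 5 each). As the libraries were of whole tissue, fewer cells of a type and less RNA per cell cannot be told apart for this or any gene below.

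Serpina1e, the most abundant of them, had 909, 488, 811, 695 and 901 CPM in WT replicates 1 to 5 and 79.1, 7.83, 73.5, 55.2 and 47.0 CPM in KSR23 replicates 1 to 5. The highest KSR23 library lay below the lowest WT library, and KSR23 replicate 2 lay far below the other KSR23 libraries. The mean fell from 761 ± 175 to 52.5 ± 28.2 CPM (SD, n = 5 each), a log2 fold change of -3.86 (SE 0.46, edgeR adjusted p = 1.44e-11). Serpina1a had 305, 166, 258, 233 and 288 CPM in WT and 14.1, 1.71, 9.62, 7.9 and 6.77 CPM in KSR23. KSR23 replicate 2 was again the lowest library. The log2 fold change of Serpina1a was -4.96 (SE 0.43, edgeR adjusted p = 4.67e-20). The ratio of Serpina1e to Serpina1a was 2.95 to 3.14 in WT and 4.59 to 7.64 in KSR23, so the share of Serpina1e within the pair was higher in every KSR23 library. The ratio itself was not tested.

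The remaining antitrypsin genes were expressed at lower levels. Serpina1d had 9.6, 10.4, 9.21, 11.6 and 9.69 CPM in WT and 0.284, 0.419, 0.517, 0.443 and 0.988 CPM in KSR23, a log2 fold change of -4.27 (SE 0.36, edgeR adjusted p = 1.03e-24). Its WT libraries agreed closely, with an SD of 0.942 around a mean of 10.1 CPM. Serpina1b went from 11 ± 1.47 to 3.01 ± 1.36 CPM (SD, n = 5 each), a log2 fold change of -1.87 (SE 0.36, edgeR adjusted p = 1.46e-05). Serpina1c went from 3.7 ± 1.3 to 0.911 ± 0.458 CPM, a log2 fold change of -2.04 (SE 0.47, edgeR adjusted p = 3.95e-04). The fold changes of Serpina1b and Serpina1c were smaller than those of Serpina1a, Serpina1d and Serpina1e, though this difference between genes was not tested. Both lost their calls in replicates 1 to 3 alone (edgeR adjusted p = 0.128 for Serpina1b and adjusted p = 0.177 for Serpina1c), where Serpina1a, Serpina1d and Serpina1e were still called (edgeR adjusted p = 1.74e-06, adjusted p = 5.98e-10 and adjusted p = 7.22e-04). The quasi-likelihood test in these libraries called Serpina1a (edgeR adjusted p = 0.0358) and Serpina1d (edgeR adjusted p = 0.0097) and not Serpina1e (edgeR adjusted p = 0.0999). Reads that fit several genes were not counted, and the share of 75-base stretches found in other genes too came to 73.6% for Serpina1c, 49.3% for Serpina1a, 37.1% for Serpina1d, 19.7% for Serpina1e and 19.0% for Serpina1b. The level of each of the 5 genes, and of Serpina1b and Serpina1d whose annotations overlap, is uncertain to that extent. Serpina1f, the sixth gene of the group, had 0 to 30 counts per library and was not called (edgeR adjusted p = 0.581).

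Markers of other tissues were examined beside the antitrypsins, which the liver makes in bulk. Among 7 hepatocyte markers 3 were called higher and 1 lower, and their summed level was 371 to 934 CPM in WT and 322 to 1428 CPM in KSR23. Most of that sum was Cps1, which enterocytes of newborn mice also express. The fibrinogen genes Fga (log2 fold change 5.57) and Fgb (log2 fold change 3.47) and haptoglobin (Hp, log2 fold change 2.31) were the markers called higher, with Fga at 0.106 to 0.864 CPM in WT and 3.9 to 43.6 CPM in KSR23. The marker called lower was albumin (Alb), with 12 to 89 counts in WT and 0 to 27 in KSR23, and Fgg and Tdo2 were under 1 CPM in every library and were not called. Among 7 markers of pancreatic acinar cells 5 were called lower, with sums of 75.0 to 108 CPM in WT and 0.556 to 1.13 CPM in KSR23, and Amy2a5 and Pnlip were at 3 counts or fewer in every library. Most of the WT sum was Ctrb1, and without it the sums were 1.8 to 13.7 CPM in WT and 0.367 to 0.779 CPM in KSR23. The part of either cell type in the antitrypsin result was not tested.

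Most Serpina3 genes that changed went the other way. These genes are the mouse counterparts of the human antichymotrypsin gene, and of the 11 in the files 9 were tested, 5 were called higher and 1 lower. Serpina3g, an intracellular inhibitor of cathepsins that is known from activated T cells and macrophages, had 20.9, 12.1, 14.9, 17.0 and 19.0 CPM in WT and 51.4, 50.6, 71.4, 47.8 and 55.6 CPM in KSR23. It was the most abundant gene of the group, and every KSR23 library exceeded every WT library. Its log2 fold change was 1.72 (SE 0.27, edgeR adjusted p = 6.02e-08). Serpina3f had 2.79, 2.23, 3.93, 2.13 and 4.43 CPM in WT and 16.7, 18.7, 22.1, 17.0 and 20.6 CPM in KSR23, a log2 fold change of 2.62 (SE 0.31, edgeR adjusted p = 1.29e-13). The 5 KSR23 libraries of Serpina3f lay close together, with an SD of 2.35 around a mean of 19.0 CPM.

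Serpina3n, a secreted inhibitor of granzyme B and leukocyte elastase, had 0.588, 0.566, 0.66, 0.547 and 0.263 CPM in WT and 1.65, 6.84, 1.75, 2.51 and 4.77 CPM in KSR23. The KSR23 libraries varied widely (SD 2.25 around a mean of 3.5 CPM), but the groups did not overlap. Its log2 fold change was 2.73 (SE 0.49, edgeR adjusted p = 2.6e-06). Serpina3f, Serpina3g and Serpina3n were also called in replicates 1 to 3 alone (edgeR adjusted p = 2.37e-04, adjusted p = 0.0225 and adjusted p = 0.0362). By the quasi-likelihood test in these libraries Serpina3f kept its call (edgeR adjusted p = 0.0343), while Serpina3g (edgeR adjusted p = 0.11) and Serpina3n (edgeR adjusted p = 0.186) lost theirs. Serpina3i stayed low, at 3 to 4 counts per WT library and 7 to 33 per KSR23 library, with a log2 change of 1.91 (SE 0.62, edgeR adjusted p = 0.0128). It lost its call without KSR23 replicate 5 (edgeR adjusted p = 0.0547), in replicates 1 to 3 alone (edgeR adjusted p = 0.363) and with the Y-linked share as a covariate (edgeR adjusted p = 0.262).

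The remaining 2 calls of the group rested on few counts. Serpina3c had no count in any WT library and 4, 5, 0, 16 and 0 counts in KSR23, which is too few for a fold against the floor of 3 counts. It was called by the likelihood ratio test (adjusted p = 0.0176) and not by the quasi-likelihood F test (adjusted p = 0.106), and lost the call without KSR23 replicate 4 (edgeR adjusted p = 0.0638), in replicates 1 to 3 alone (edgeR adjusted p = 0.236) and with the Y-linked covariate (edgeR adjusted p = 0.056). Serpina3a numbered 1, 10, 0, 4 and 3 counts over the WT libraries and 0, 0, 1, 0 and 0 over the KSR23 libraries. WT replicate 2 held most of these counts. Scaled to the library totals, that is a WT to KSR23 ratio of 26.3 with a counting interval (95%) of 4.16 to 1098, while the model, which includes the spread between libraries, gave a log2 fold change of -3.83 (interval -7.21 to -0.45). Its call (likelihood ratio adjusted p = 0.0225, quasi-likelihood adjusted p = 0.0728) was lost when WT replicate 4 or 5 or KSR23 replicate 1, 2, 4 or 5 was left out (edgeR adjusted p = 0.0556 to 0.0688), and without WT replicate 2 the gene was under the filter. Without KSR23 replicate 3 no KSR23 count was left. The call was also lost in replicates 1 to 3 alone (edgeR adjusted p = 0.492) and with the Y-linked covariate (edgeR adjusted p = 0.369). Among the Serpina3 genes that were not called, Serpina3h is annotated as a transcribed pseudogene and had 0 to 5 counts in WT and 0 to 47 in KSR23. Between 5.33% and 7.69% of the 75-base stretches of Serpina3f, Serpina3g and Serpina3i were shared with other genes. Markers of cytotoxic lymphocytes summed to 11.1 to 14.5 CPM in WT and 4.13 to 9.77 CPM in KSR23 (2 of 6 lower), those of macrophages to 712 to 814 and 563 to 717 CPM (1 of the 5 in the files lower), and their part in the Serpina3g result was not tested.

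Outside these 2 groups, clade A held 2 further calls, both lower. Serpina9 (centerin), known from germinal centre B cells, numbered 8, 24, 11, 13 and 18 counts over the WT libraries and 0, 0, 0, 3 and 1 over the KSR23 libraries (log2 fold change -4.57, SE 0.94, edgeR adjusted p = 4.62e-07), and in replicates 1 to 3 the likelihood ratio test called it (edgeR adjusted p = 2.82e-04) and the quasi-likelihood test did not (edgeR adjusted p = 0.143). Every KSR23 library was at or under the floor of 3 counts, and without KSR23 replicate 4 the log2 fold change was -5.64. Serpina5, an inhibitor of activated protein C, numbered 0, 6, 4, 2 and 5 counts over the WT libraries and none in KSR23. It was at least 1.52-fold lower in KSR23 against a floor of 3 counts per library (edgeR adjusted p = 0.00103), and 1 WT library was itself at 0. The call was lost in replicates 1 to 3 alone (edgeR adjusted p = 0.124). Serpina11 was not called (edgeR adjusted p = 0.15), and Serpina6, Serpina7, Serpina12 and Serpina4-ps1 were at or near 0.

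On chromosome 12 the clade A genes lay in 1 block of 23 members between 103646630 and 104414329 (767.7 kb, build GRCm38), and the direction of change followed their order. All 8 calls lower in KSR23 stood at the proximal side, from Serpina1b (103728156 to 103830373) to Serpina3a (104112724 to 104121896), and all 5 calls higher stood distal to them, from Serpina3c (104146382 to 104153870) to Serpina3n (104406729 to 104414329). Genes with few counts, Serpina5, Serpina3a and Serpina3c among them, sat at the boundary. Clade B, on chromosomes 1 and 13, held 3 calls among 11 tested members (27.3%, beside 18.5% of all tested genes).

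**Figure D2:**
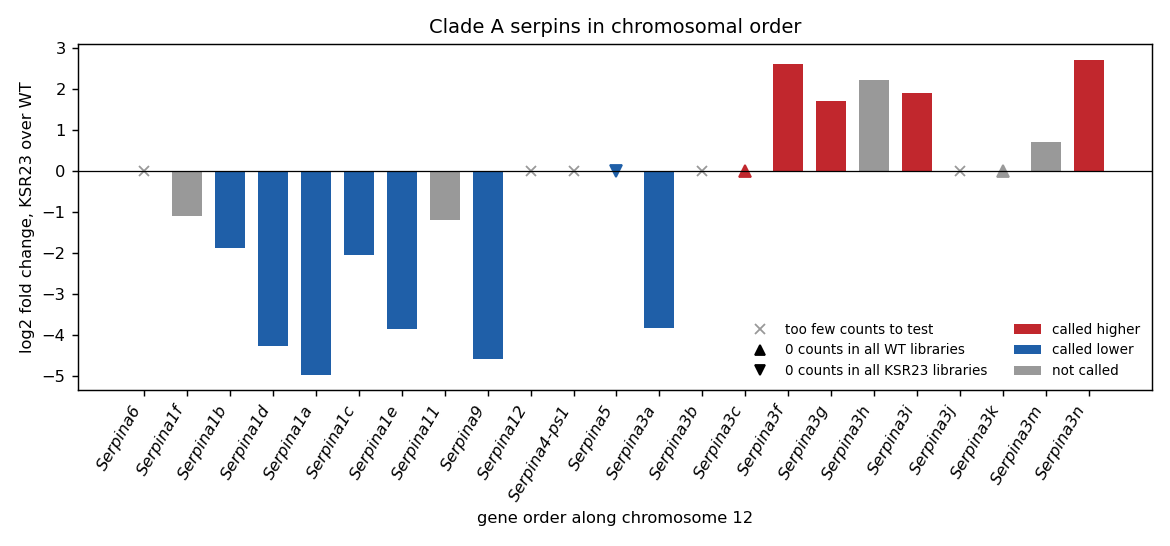
Log2 fold change (KSR23 over WT) of the 23 clade A serpins in the order of their start positions along chromosome 12, coloured by call, with a cross for genes with too few counts to test and a triangle, drawn at 0, for genes with no count in 1 group. The blue bars stand to the left and the red bars to the right of Serpina3b.

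Within clade B, 11 of 27 members were tested and 3 were called, a share of 27.3% beside 18.5% of all genes. Serpinb1a, a cytosolic inhibitor of neutrophil serine proteases, had 1036, 717, 818, 848 and 1019 CPM in WT and 1057, 1884, 2940.2, 1429 and 2508 CPM in KSR23. The lowest KSR23 library lay just above the highest WT library, and the other KSR23 libraries lay well above it. The mean rose from 887 ± 137 to 1964 ± 769 CPM (SD, n = 5 each), a log2 fold change of 1.15 (SE 0.31, edgeR adjusted p = 0.00272). The call was lost in replicates 1 to 3 alone (log2 fold change 1.23, edgeR adjusted p = 0.248) and with the Y-linked share as a covariate (log2 fold change 0.75, edgeR adjusted p = 0.334).

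Epithelial markers were read beside Serpinb1a. The summed level of 7 epithelial markers was 1852 to 2410 CPM in WT and 3396 to 7138 CPM in KSR23, of which Cdh17, an intestinal cadherin, and Krt20, an intestinal keratin, were called higher and the other 5 were not, Vil1 (edgeR adjusted p = 0.0889) and Lgals4 (log2 fold change -0.36, edgeR adjusted p = 0.454) among them. Cdh17 and Krt20, grouped after their values were seen, together came to 880.1 to 1439 CPM in WT and 2081 to 5756 CPM in KSR23, whereas the other 5 summed to 816 to 1530.3 CPM in WT and 753 to 1383 CPM in KSR23 and overlapped. Serpinb1a divided by the sum of all 7 was 0.339 to 0.459 in WT and 0.311 to 0.412 in KSR23, so the groups overlapped on this scale. Divided by Vil1 alone, Serpinb1a was 1.54 to 2.6 in WT and 2.08 to 3.45 in KSR23, which overlapped as well. Divided by Epcam alone, it was 0.831 to 7.04 in WT (median 3.45) and 1.8 to 21.6 in KSR23 (median 20.3), a wide spread in both groups. Divided by the same sum of 7, Serpina3f did not overlap between the groups (0.00106 to 0.00194 in WT and 0.0031 to 0.0049 in KSR23), and neither did Serpina1e (0.263 to 0.403 and 0.00166 to 0.0233), whereas Serpina3g did (0.00618 to 0.00928 and 0.00887 to 0.0151). As the sum itself was higher in KSR23, the uncalled Serpinb6a (0.157 to 0.211 and 0.0544 to 0.0848) and Serping1 (0.0327 to 0.0535 and 0.0174 to 0.0249) were lower on this scale in every KSR23 library. Markers of neutrophils, which also make Serpinb1a, summed to 3.34 to 11.4 CPM in WT and 3.19 to 10.9 CPM in KSR23, with 1 of the 5 in the files called higher. That marker, Elane, had no count in WT and 0 to 7 in KSR23, and the quasi-likelihood test did not call it (adjusted p = 0.0838). S100a8 and S100a9 were not called. The part of either cell type in the Serpinb1a result was not tested.

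**Figure D3:**
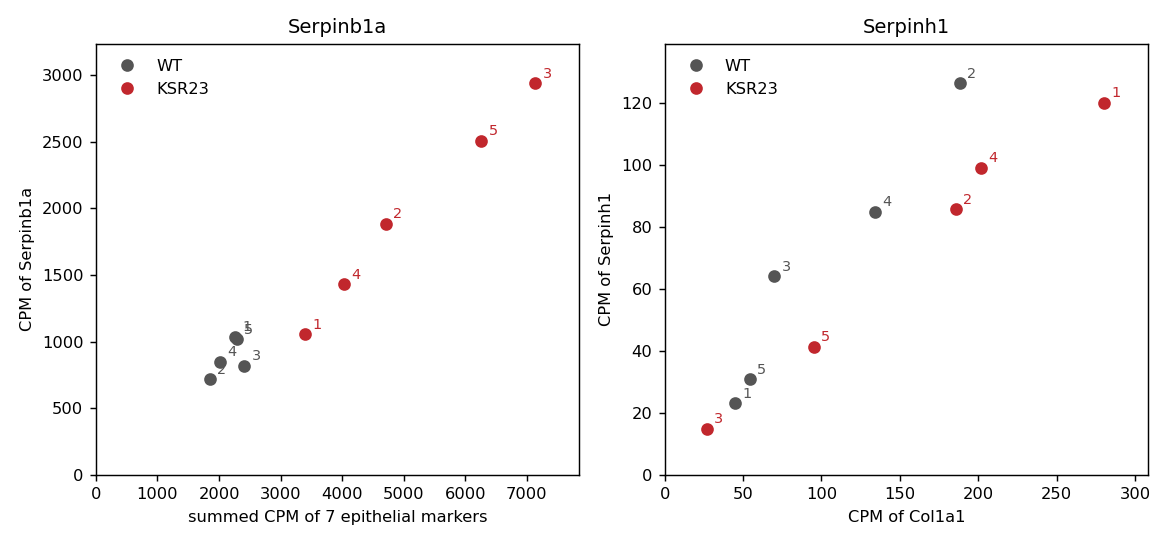
Left, CPM of Serpinb1a against the summed CPM of 7 epithelial markers, and right, CPM of Serpinh1 against CPM of Col1a1, with 1 point per library (grey WT, red KSR23) labelled with its replicate number and linear axes from 0. For Serpinb1a the KSR23 libraries lie at higher marker sums, which Cdh17 and Krt20 account for, with ratios to the sum that overlap those of WT. For Serpinh1 the libraries of both groups are spread along the whole range.

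Serpinb5 (maspin), a protein of epithelial cells that does not inhibit proteases in the usual way, had 0.124, 0.0707, 0.0734, 0.0864 and 0.338 CPM in WT and 1.17, 3.64, 1.35, 1.28 and 4.18 CPM in KSR23. It was near the floor in WT, at 2 to 9 counts per library, and at 34 to 148 counts in KSR23. It rose by a log2 fold change of 4.05 (SE 0.62, edgeR adjusted p = 1.67e-08) and kept its call in replicates 1 to 3 (likelihood ratio edgeR adjusted p = 8.7e-05, quasi-likelihood adjusted p = 0.0435). Without WT replicate 5 the log2 fold change was 4.65. Squamous epithelium, where maspin is abundant, was represented by 6 markers that summed to 8.73 to 17.8 CPM in WT and 5.76 to 9.09 CPM in KSR23, with none called higher and 1 lower.

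Serpinb6b, a cytosolic relative of the cathepsin G inhibitor Serpinb6a, had 23.9, 11.6, 15.9, 16.1 and 22.5 CPM in WT and 6.03, 5.22, 6.2, 5.3 and 5.59 CPM in KSR23. All KSR23 libraries lay below all WT libraries, and their SD was 0.435 against 5.1 in WT. The log2 fold change was -1.66 (SE 0.29, edgeR adjusted p = 1.29e-06), and the call was lost in replicates 1 to 3 alone (edgeR adjusted p = 0.122). Serpinb6a itself was among the most abundant serpins, with 291 to 475 CPM in WT and 257 to 588 CPM in KSR23, and was not called (log2 fold change -0.08, interval -0.67 to 0.51). Of its 75-base stretches 22.0% also occur in other genes, more of them in the overlapping gene Nqo2 than in any other. Serpinb9, the inhibitor of granzyme B that protects cells from their own cytotoxic granules, averaged 25.5 ± 4.82 CPM in WT and 16.7 ± 4.64 in KSR23 (SD, edgeR adjusted p = 0.142), and was called without KSR23 replicate 3 (log2 fold change -0.78, edgeR adjusted p = 0.0322). Serpinb8 was not called at 2.01 ± 0.548 and 1.64 ± 0.483 CPM (edgeR adjusted p = 0.618). No count was found in any library for 13 of the 27 clade B members, among them the whole Serpinb3 group and Serpinb9c to Serpinb9g.

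None of the 10 tested members of clades C to I was called by the likelihood ratio or the quasi-likelihood test of edgeR. These tests called 18.5% and 15.4% of all genes, and 10 members are too few to be set apart from those shares. Among them 1 (Serpinf2) had an unadjusted p under 0.05 in both tests and was called by DESeq2. Serping1, the inhibitor of the first complement proteases, ranged from 78.7 to 121 CPM in WT and from 84.4 to 124 CPM in KSR23 (log2 fold change 0.10, interval -0.40 to 0.59). Serpinf2, the main inhibitor of plasmin, had 7.83, 7.64, 7.27, 7.92 and 8.56 CPM in WT and 9.98, 9.45, 15.0, 10.8 and 14.7 CPM in KSR23. Every KSR23 library of Serpinf2 exceeded every WT library, but the gene missed the threshold (log2 fold change 0.61, SE 0.28, edgeR adjusted p = 0.109) and passed it with DESeq2 (adjusted p = 0.0396). Serpinf1, an antiangiogenic member that inhibits no protease, had 11.7 ± 2.08 and 9.23 ± 3.08 CPM (edgeR adjusted p = 0.521), and Serpini1 (neuroserpin) had 6.95 ± 1.72 and 7.06 ± 1.06 CPM (edgeR adjusted p = 0.971). Antithrombin (Serpinc1), heparin cofactor (Serpind1) and Serpine3 had 0 to 37 counts per library and were not called.

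Serpine2 and Serpinh1 varied widely among the libraries of both groups and were not called. Serpine2, an inhibitor of thrombin and plasminogen activators at cell surfaces, had 3.65, 26.4, 26.6, 17.4 and 8.86 CPM in WT and 37.4, 48.9, 4.29, 41.5 and 22.0 CPM in KSR23 (log2 fold change 0.89, interval -0.30 to 2.09). Serpinh1, the chaperone that folds procollagen, had 23.0, 126, 64.0, 84.9 and 30.8 CPM in WT and 120.0, 85.6, 14.8, 99.1 and 41.3 CPM in KSR23 (log2 fold change 0.13, interval -0.96 to 1.23). The same 4 libraries, WT replicates 1 and 5 and KSR23 replicates 3 and 5, were the lowest of their group for both genes. Col1a1, a collagen chosen from the fibroblast markers after its values were seen, had 44.7, 188, 69.9, 134 and 54.4 CPM in WT and 280.4, 186, 26.8, 202 and 95.3 CPM in KSR23, with the same 4 libraries lowest. These 4 libraries were likewise lowest for 2744 (21.3%) of the 12889 genes at a mean of 1 or more CPM, among them the epithelial marker Cdx1 and the endothelial marker Kdr. For Serpinb1a and Serpinb6a the same 4 libraries were instead the highest of their group. The ratio of Serpinh1 to Col1a1 was 0.515 to 0.915 in WT and 0.428 to 0.553 in KSR23, while the sum of all 5 fibroblast markers (1113 to 1718 and 1011 to 1489 CPM) was highest in WT replicate 1, where Serpinh1 was lowest of WT.

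**Figure D4:**
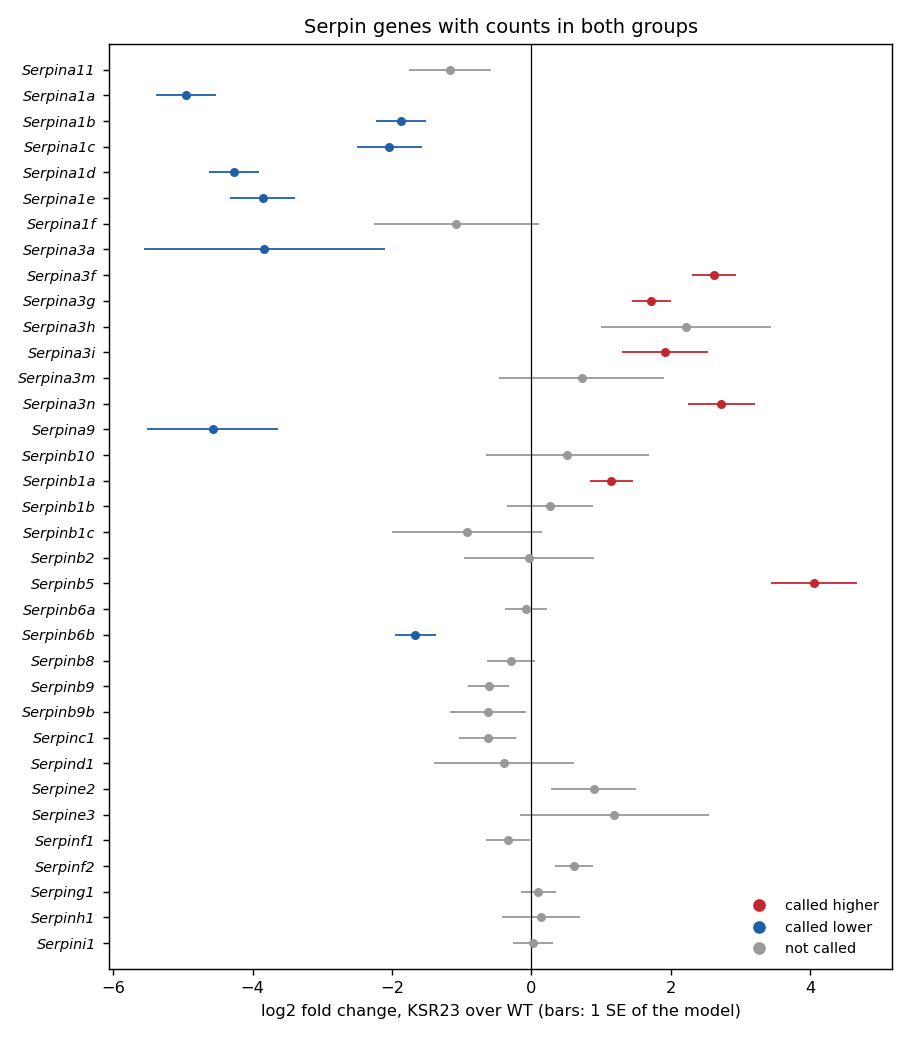
Log2 fold change (KSR23 over WT) of tested serpins with counts in both groups (1 uncalled gene is left out), with bars of 1 SE of the model, coloured by call. The antitrypsins, Serpina3a and Serpina9 stand at the left, Serpinb5 and the other called Serpina3 genes at the right, and the members of clades C to I shown lie between them without a call.

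Divided by the summed exon length of each gene, the levels of different serpins can be set side by side. The summed level was 1192 ± 201 CPM per kb in WT and 1100.2 ± 352 CPM per kb in KSR23 (SD, n = 5 each), so the size of the pool overlapped between the groups. The shares of the antitrypsins, Serpinb1a and the Serpina3 genes did not overlap, whereas those of Serpinb6a, Serping1 and Serpinh1 did. Serpina1a to Serpina1e held 51.7% ± 3.83 of it in WT and 3.95% ± 2.79 in KSR23. Serpinb1a held 32.5% ± 1.83 and 75.9% ± 7.34, and the Serpina3 genes held 0.82% ± 0.0252 and 3.53% ± 0.739. Serpinb6a held 6.42% ± 0.355 and 6.61% ± 1.11. The highest serpins per kb were Serpina1e, Serpinb1a and Serpina1a in WT and Serpinb1a, Serpinb6a and Serping1 in KSR23. Serpins took 0.269% ± 0.0418 of all counts in WT and 0.261% ± 0.0423 in KSR23.

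**Figure D5:**
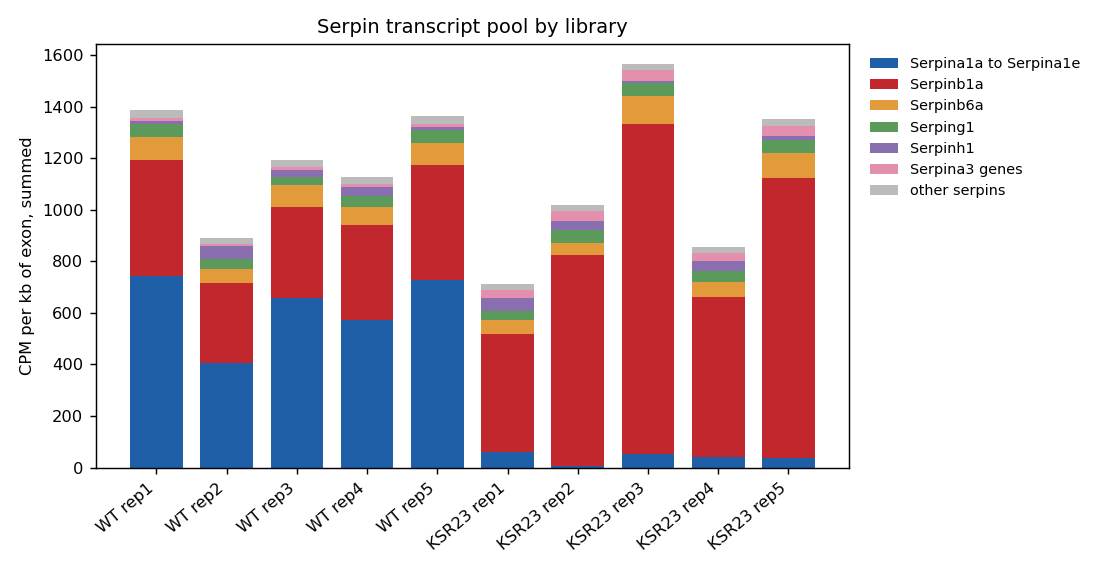
Summed serpin level in CPM per kb of exon in each library, stacked by gene or gene group on a linear axis from 0. In WT the Serpina1a to Serpina1e segment is the largest in every library, and in KSR23 the Serpinb1a segment is.

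Proteases that serpins inhibit were read from the same fit. Of 51 listed proteases in the files 45 were tested and 24 were called, 6 higher and 18 lower, which is 53.3% of those tested, beside 18.5% of all genes (9.74% higher and 8.76% lower). By the quasi-likelihood F test 21 of them were called (15.4% of all genes), and 12 were called in replicates 1 to 3 alone (3.36% of all genes). At a mean of 1 or more CPM over all 10 libraries 17 of 30 were called, beside 20.8% of all such genes. Pancreatic proteases made up 8 of the calls lower (8 of 9 tested), and mast cell proteases another 6 (6 of 6). The chymotrypsin gene Ctrb1 had 73.2 to 94.5 CPM in WT and 0.0645 to 0.762 CPM in KSR23 (log2 fold change -8.24, SE 0.46, edgeR adjusted p = 3.96e-41). The trypsin genes Prss2 (0.283 to 11.2 CPM in WT) and Try5 (0.0367 to 4.89 CPM in WT) fell to at most 0.0177 and 0.0531 CPM in KSR23, and both scattered widely among the WT libraries. Mast cell markers summed to 22.7 to 41.0 CPM in WT and 18.8 to 28.5 CPM in KSR23, with 4 of 6 lower, but 3 of those 4 (Mcpt1, Cma1 and Tpsb2) are also on the protease list. Of the other markers Cpa3, itself a protease, was lower, and Ms4a2 (edgeR adjusted p = 0.514) and Kit (6.09 to 13.6 CPM in WT, 10.8 to 21.7 CPM in KSR23, edgeR adjusted p = 0.0579) were not called. Among the proteases that rose, coagulation factor F9 had 0.124, 0, 0, 0 and 0 CPM in WT and 3.11, 4.93, 11.1, 2.76 and 9.12 CPM in KSR23 (log2 fold change 7.70, SE 0.91, edgeR adjusted p = 1.51e-18). Of 8 membrane proteases and kallikreins 4 rose, and of 5 cathepsins 3 fell. Neutrophil proteases were barely detected, and Elane, the elastase that antitrypsin inhibits, had no count in WT and a mean of 0.091 CPM in KSR23 (likelihood ratio adjusted p = 0.00852, quasi-likelihood adjusted p = 0.0838). In replicates 1 to 3 alone Ctrb1 and F9 were called by both tests (quasi-likelihood adjusted p = 0.00299 and adjusted p = 0.0305), Prss2 and Try5 by the likelihood ratio test alone (quasi-likelihood adjusted p = 0.17 and adjusted p = 0.244), and Elane was not (edgeR adjusted p = 0.0683).

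Protease inhibitors of other families were read in the same way. Of 38 in the files 33 were tested and 8 were called, 2 higher and 6 lower, which is 24.2% of those tested, beside 18.5% of all genes, so this share lay near the background. At a mean of 1 or more CPM over all 10 libraries 6 of 17 were called, beside 20.8% of all such genes. Itih4, a plasma protein of the inter-alpha-trypsin inhibitor family, rose from 0.309 ± 0.253 to 5.56 ± 3.65 CPM (log2 fold change 4.14, edgeR adjusted p = 2.61e-08) and in replicates 1 to 3 the likelihood ratio test called it (edgeR adjusted p = 0.00286) and the quasi-likelihood test did not (edgeR adjusted p = 0.132). Its relative Itih3 fell from 8.18 ± 0.986 to 3.74 ± 1.7 CPM (log2 fold change -1.14, edgeR adjusted p = 0.012), a call lost in replicates 1 to 3 alone (edgeR adjusted p = 0.401). The whey acidic protein Wfdc2 fell (log2 fold change -2.20, edgeR adjusted p = 6.96e-07), as did the Kunitz inhibitor Tfpi2 (log2 fold change -1.08, edgeR adjusted p = 0.0048). In replicates 1 to 3 alone Wfdc2 was called (edgeR adjusted p = 0.0414, quasi-likelihood adjusted p = 0.189) and Tfpi2 was not (edgeR adjusted p = 0.314). None of 9 cystatins and stefins was called by edgeR or DESeq2, with 0, 1 and 2 of them at an unadjusted p under 0.05 in the likelihood ratio, quasi-likelihood and DESeq2 tests. Of 8 further genes listed as receptors, partners or relatives of serpins, Plaur, the urokinase receptor, rose from 5.35 ± 0.87 to 13.4 ± 6.48 CPM (edgeR adjusted p = 0.00307), whereas angiotensinogen (Agt, a hormone precursor that is itself a serpin without inhibitory activity and is outside the symbol rule, log2 fold change -0.81, edgeR adjusted p = 0.0301) and involucrin (Ivl, log2 fold change -3.81, edgeR adjusted p = 2.14e-06) fell. In replicates 1 to 3 alone Ivl was called (edgeR adjusted p = 0.00604, quasi-likelihood adjusted p = 0.186), while Plaur (edgeR adjusted p = 0.363) and Agt (edgeR adjusted p = 0.559) were not.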

How the data were processed

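RNA of the jejunum of WT and KSR23 mice (5 libraries each) was primed with oligo-dT, amplified by PCR and sequenced without molecular identifiers, so floors and counting intervals reflect counting error alone. The deposited values were raw counts per gene, which the authors made by mapping to mm10 with TopHat2 2.1.0 and counting with HTSeq 0.6.1p1 under strict intersection with transcript models. Reads with several alignments (8.62 to 17.1 M per library) entered no gene, and the strand setting is not given in the sources used here. Groups and replicate numbers came from the sample titles.

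Counts were scaled by TMM and fitted over all genes with edgeR 4.0.16 (R 4.3.3) with group as the only term, using genes that reached 5 counts in some library. The likelihood ratio test, which the study used, was two-sided with Benjamini-Hochberg adjustment. Intervals of fold changes are 95% intervals from the SE, and folds against a group at 0 were taken against 3 counts per library. Alternatives were the quasi-likelihood F test, DESeq2 1.42.0, limits on low counts, RLE or no scaling, a replicate block, a Y-linked covariate, replicates 1 to 3 alone and leaving out each library. The tests were run on simulated data with known changes, in 3 draws with 200 changed genes each. The share of false calls was 9.95% to 12.6% for DESeq2, 4.33% to 5.31% for likelihood ratio and 3.45% to 4.81% for quasi-likelihood. Whether this order holds at the spread of the real libraries was not tested, and no call is set aside on this ground. Serpins were named if called or at a mean of 1 or more CPM in either group, and from the other lists the 4 called genes at 1 or more CPM with the largest fold change; Elane, Cdh17, Krt20, Col1a1 and the genes named by counts alone were added after their values were seen. Gene positions, exon lengths and 75-base stretches came from GENCODE M21. Members and lists were chosen with earlier results of these data known. For 1 tested member, which is included in the counts of members, no values are reported here.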

Additional observations from a re-analysis of the deposited data

Results flagged for a closer look

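Within groups of 5 libraries, 46 sets of values were checked for a library far from the others by Dixon's test on log2 CPM (prior count 2), and 3 passed the limit, where 2.3 are expected by chance alone. Serpina1c in WT replicate 2 was at 0.59 on the log2 CPM scale (41 counts), with the nearest other WT library at 1.96. Serpina1e in KSR23 replicate 2 was at 2.98 (243 counts), with the nearest other KSR23 library at 5.56. Serpina3n in WT replicate 5 was at -1.66 (7 counts), with the nearest other WT library at -0.73. The cause of these distances was not tested, and none of these 3 genes lost its call when that library was left out.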

How the results depend on the processing

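Of 493 recomputed fold changes of the 25 named serpins, 436 kept direction and side of the threshold, 37 (12 genes) lost the call, 2 gained one and 18 (5 genes, none called) changed sign. With 5 or more counts required in every library fewer genes were tested, and 10 of 21 serpins, 12 of 27 proteases, 5 of 19 inhibitors and 2899 of 13181 genes in all were called. The 16 serpin calls became 8 in replicates 1 to 3 alone and 4 there by the quasi-likelihood test; the 24 protease calls became 12 and 2, and 15 with the Y-linked covariate; the 8 inhibitor calls became 4 and 0 (6 at an unadjusted p under 0.05 by the quasi-likelihood test). Calls over all genes became 579 and 140 in replicates 1 to 3 and 1797 with the covariate. Leaving out 1 library gave 14 to 17 serpins, 20 to 25 proteases, 6 to 10 inhibitors and 2370 to 3802 genes in all. Sign changes were Serpinb6a (-0.268 to 0.0913 with 1 library left out), Serpinb8 (0.0789 in replicates 1 to 3 and 0.0776 there by the quasi-likelihood test), Serping1 (-0.00902 on library totals), Serpinh1 (-0.0842 to 0.56 with 1 library left out) and Serpini1 (-0.016 with DESeq2 and with RLE factors, -0.0692 on library totals, -0.0844 in replicates 1 to 3, -0.0838 there by the quasi-likelihood test, -0.0864 to 0.16 with 1 library left out). The replicate block gave 15 serpins, without Serpina3a (adjusted p = 0.174); same-numbered libraries correlated at -0.55 to 0.25, so the numbers did not pair them. The cause of these shifts was not tested beyond the smaller number of genes or libraries that an alternative itself uses. Depth limits genes at or under 3 counts, for which no change was detectable.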
